A study of Mus musculus with 56 samples.

Results

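Regulatory T cells (Tregs) from the spleen were compared between mice on a high-fat diet (HFD) and mice on a normal chow diet (NCD) after 8 and 16 weeks of feeding. All libraries titled as spleen, HFD or NCD, week 8 or 16 were taken, 12 of the 56 libraries of the series, and diet was compared with week as a covariate. The 4 groups were HFD week 8, NCD week 8, HFD week 16 and NCD week 16, with 3 libraries each. By their labels the libraries of all 4 groups come from C57BL/6 mice of the vTreg53 Tg+ genotype, a T cell receptor transgenic line, 12 weeks old when the diets began. The protocol also speaks of recipient mice, and whether any of these cells had been transferred is not stated. Cells positive for the transgenic clonotype were sorted again to 1000 cells per library and profiled by Smart-seq, a poly(A) method, with 18 PCR cycles and paired reads of 38 bases. The tissue field of these libraries reads visceral adipose tissue (VAT), and the titles, which name the spleen, were followed. The labels leave the animal behind each replicate unnamed, and p-values then reflect the spread among these libraries, which may be technical. Labels and protocols used here do not name the promoter of the transgene.

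Tregs are CD4+ T cells that express the transcription factor Foxp3 and restrain immune responses. In the spleen many are resting cells that recirculate through lymphoid tissue, while others are effector Tregs with receptors for entry into tissues. T cells take fatty acids into mitochondria for oxidation through the carnitine shuttle, and they make sterols under the transcription factor Srebf2, whose targets fall when cells are rich in sterol.

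Library totals ran from 3248686 to 5156451 counts, so that a level of 0.582 to 0.923 CPM (the unit used here, a gene's counts relative to its library's size) corresponds to 3 counts. Treg markers were present in all 12 libraries: Foxp3 lay between 700.7 and 917.4 CPM and Cd4 between 579.0 and 733.6 CPM. The segment Trbv2 took 89.5 to 95.1% of T cell receptor beta variable counts. Defining markers of adipocytes (Adipoq, Lep, Plin1) and granulocytes (S100a8, S100a9) were at or near 0, with no value above 1.07 CPM, and the summed list reached 2.06 CPM for adipocytes and 5.18 CPM for granulocytes. The 16 macrophage and monocyte markers summed to 10.7 to 20.6 CPM with HFD and 6.06 to 23.9 CPM with NCD. In 1 library, NCD week 8 replicate 2, Hbb-bs, a beta globin, was at 82.7 CPM, against at most 3.48 CPM elsewhere. Jchain, the joining chain of secreted antibodies and listed here among 8 plasma cell markers, stood apart in 3 HFD libraries. It was at 88.0 CPM in HFD week 8 replicate 2 and at 23.6 CPM in HFD week 8 replicate 3. In HFD week 16 replicate 1 it was at 83.1 CPM, and in the other 9 libraries at most at 1.83 CPM. The 8 plasma cell markers summed to 1.85 to 101.3 CPM with HFD and 1.696 to 9.21 CPM with NCD, with Tnfrsf17 at 0 in every HFD library. The 19 B cell markers summed to 2475 to 5633 CPM with HFD and 1860 to 2830 CPM with NCD, most of it Ighm (2261 to 4576 and 1732 to 2626 CPM). On the first principal component, which held 17.7% of the variance, HFD week 16 replicate 1 and NCD week 16 replicate 2 were the extremes. For many lists, counts of members at unadjusted p under 0.05 are given below also without these or single libraries where they move by over 1.5 times. The part of other cells in the results was not tested beyond that.

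The late diet comparison left 1 of 13034 tested genes past an adjusted p of 0.05 (0.00767%), in edgeR's quasi-likelihood test with Benjamini-Hochberg adjustment. That gene was Cpt1a (chr19:3322334-3385733, plus strand, mm10), which encodes carnitine palmitoyltransferase 1A, the enzyme that commits long-chain fatty acids to entry into mitochondria. Without adjustment, 621 genes (4.76%) were higher and 462 genes (3.54%) lower with HFD at p under 0.05. DESeq2, run on the same genes, called 41 genes, of which 28 were higher and 13 lower. Genes short of the edgeR threshold are described below by their values. The shares of 4.76% and 3.54% stand beside the counts of list members given there. Without the 3 HFD libraries with Jchain, 412 of 14603 tested genes were higher and 352 lower at unadjusted p under 0.05.

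Cpt1a stood at 59.7, 84.9 and 59.0 CPM in the NCD week 8 libraries and at 77.9, 83.9 and 59.8 CPM in the NCD week 16 libraries. With HFD it stood at 105, 118 and 134 CPM at week 8 and at 117, 139 and 127 CPM at week 16. The lowest HFD library lay above the highest NCD library. Mean expression was 123 ± 12.4 CPM with HFD and 70.9 ± 12.7 CPM with NCD (SD, n = 6 each). The log2 fold change was 0.80 ± 0.12 (SE), with an adjusted p of 0.0167 from edgeR, and it was 0.81 at week 8 and 0.79 at week 16. Over 23 alternative analyses the log2 fold change stayed between 0.74 and 0.88 while the adjusted p ran from 3.59e-08 to 0.298. The call ended without NCD week 8 replicate 1 (adjusted p = 0.0857), NCD week 8 replicate 3 (0.0957), NCD week 16 replicate 3 (0.0632) or HFD week 16 replicate 2 (0.0954), in a fit of all 26 spleen libraries (0.101), and without the 3 HFD libraries with Jchain (0.298).

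**Figure D1:**
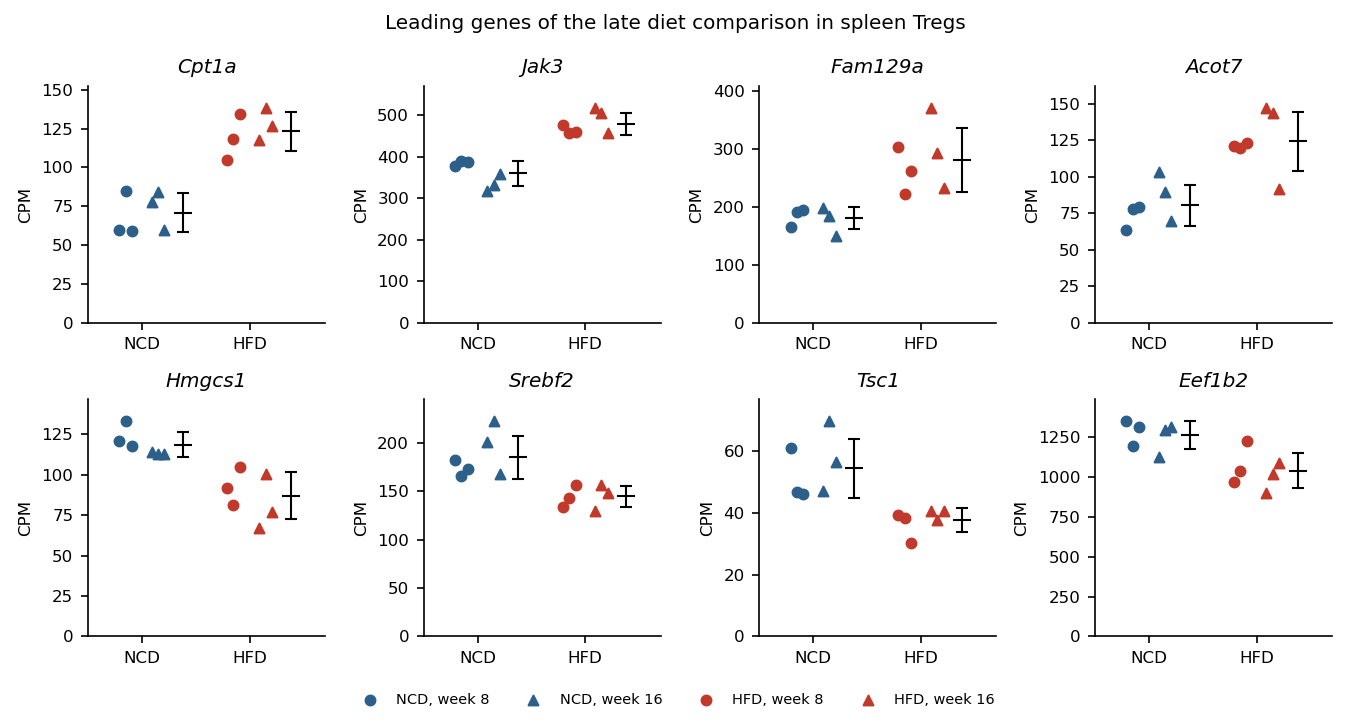
Expression in CPM (vertical axes, from 0) of 8 leading genes in the 12 libraries by diet, with circles for week 8 and triangles for week 16. The black marks are the mean and SD of the 6 libraries of a diet. For Cpt1a, Jak3 and Fam129a every HFD point lies above every NCD point, and for Hmgcs1, Srebf2 and Tsc1 every HFD point lies below. Cpt1a alone passed the adjusted threshold.

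Libraries from the earlier weeks, which the late comparison did not use, gave further values for Cpt1a on the scale of the 26 spleen libraries. At week 2 the HFD libraries were at 131, 160 and 180 CPM and the NCD libraries at 58.4, 71.4 and 118 CPM. These groups did not overlap, and the log2 fold change was 0.92 ± 0.21 (SE) with an adjusted p of 0.187 from edgeR, where 4 of 14686 genes passed (0.0272%). At week 4 the HFD libraries were at 102, 111 and 153 CPM and the 2 NCD libraries at 66.5 and 104 CPM. There the groups overlapped, and the log2 fold change of Cpt1a was 0.52 ± 0.24 (SE) with an adjusted p of 0.477 from edgeR, in a week when 182 genes passed (1.24%). Before the diets, at week 0, 3 libraries held 78.5, 83.9 and 97.5 CPM of Cpt1a, a range below every HFD library of any week.

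**Figure D2:**
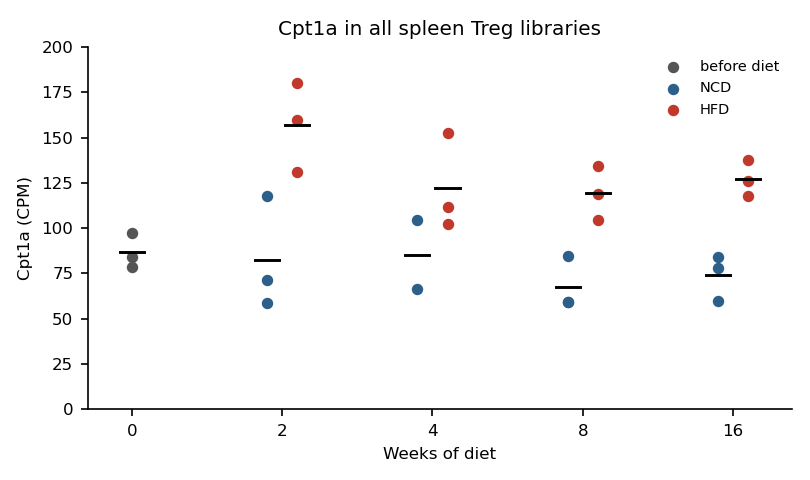
Cpt1a in CPM (vertical axis, from 0) in all 26 spleen libraries by weeks of diet (evenly spaced categories), one point per library, with bars at group means. Week 0 libraries lie between 78.5 and 97.5 CPM. HFD libraries lie between 102 and 180 CPM at every later week.

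Other genes of mitochondrial and peroxisomal fatty acid oxidation moved less. Of 28 listed genes 25 were tested, and 21 of these had a positive log2 fold change, with a median of 0.09 against -0.003 over all genes tested. At unadjusted p under 0.05, 4 were higher and 0 lower, against 4.76% and 3.54% of all genes tested. That count was 2 without the 3 HFD libraries with Jchain, and also 2 without HFD week 8 replicate 1 or 2, HFD week 16 replicate 1, NCD week 8 replicate 1 or NCD week 16 replicate 1. After Cpt1a came Slc25a20, the carnitine carrier of the inner mitochondrial membrane, at 45.5 to 69.7 CPM (median 57.9) with HFD and 30.7 to 50.9 CPM (median 38.1) with NCD. Its groups overlapped (log2 fold change 0.57 ± 0.14 SE, adjusted p = 0.231, edgeR). Hadha, a subunit of the trifunctional protein, had a log2 fold change of 0.18 and Acadl, a long-chain acyl-CoA dehydrogenase, one of 0.28. Neither passed. Acot7, an acyl-CoA thioesterase outside this list, was at 91.8 to 148 CPM (median 122) with HFD and 63.7 to 103 CPM (median 78.5) with NCD. One HFD library, week 16 replicate 3 at 91.8 CPM, lay inside the NCD range and the other 5 above it (log2 fold change 0.63 ± 0.12 SE, adjusted p = 0.166, edgeR). Plin2, which coats lipid droplets, was at 20.2 to 53.3 CPM with HFD and 9.30 to 22.4 CPM with NCD, with an adjusted p of 0.274.

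Sterol genes lay on the other side. Of 27 tested genes for making sterols and fatty acids, called the sterol list here, 21 had a negative log2 fold change and the median was -0.17. At unadjusted p under 0.05, 7 were lower and 0 higher, against 3.54% and 4.76% of all genes tested. None passed in edgeR after adjustment, whereas DESeq2 called 3. In 3 of these 27 all HFD libraries lay below all NCD libraries, against 0.199% of all genes tested in that direction and 0.207% in the other. Among these were Hmgcs1 and Srebf2.

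Hmgcs1 (chr13:119690379-119708260, plus strand), the synthase that makes HMG-CoA for the sterol pathway, stood at 67.1 to 105 CPM (median 86.5) with HFD and 113 to 133 CPM (median 116) with NCD. The ranges did not meet, and the log2 fold change was -0.45 ± 0.10 (SE) with an adjusted p of 0.191 in edgeR and 0.0193 in DESeq2. Srebf2, the transcription factor of the pathway, stood at 130 to 157 CPM (median 146) with HFD and 166 to 223 CPM (median 177) with NCD. Its log2 fold change was -0.36 ± 0.09 (SE), with an adjusted p of 0.239 in edgeR and 0.0479 in DESeq2. Among the further members with an unadjusted p under 0.05 were Sqle (log2 fold change -0.49), Mvk (-0.49) and Insig1 (-0.31). Sqle and Mvk are enzymes of sterol synthesis, and Insig1 holds the sterol sensor in the endoplasmic reticulum. Srebf1, the factor for fatty acid synthesis, differed by -0.13 and overlapped. At week 2, in other libraries, Hmgcs1 and Srebf2 did not overlap between the diets either, with log2 fold changes of -0.60 and -0.43 that did not pass (adjusted p = 0.257 for each, edgeR). Without the 3 HFD libraries with Jchain the list had 20 of 27 negative values and 5 lower members at unadjusted p under 0.05.

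Promoter windows are shown for the gene that passed and for the sterol gene with the smallest p. They are RefSeq windows in GRCm38.p6 from 250 to 51 bases before the transcript start, chr13:119690101-119690300 for Hmgcs1 and chr19:3323051-3323250 for Cpt1a, both on the plus strand. The Cpt1a window lies in an intron of a GENCODE transcript that begins further upstream, and the Hmgcs1 window lies outside the annotated gene. Capitals mark the match to the sterol element TCACNCCAC in Hmgcs1. The Cpt1a window held none of the motifs searched and has no capitals.
Hmgcs1: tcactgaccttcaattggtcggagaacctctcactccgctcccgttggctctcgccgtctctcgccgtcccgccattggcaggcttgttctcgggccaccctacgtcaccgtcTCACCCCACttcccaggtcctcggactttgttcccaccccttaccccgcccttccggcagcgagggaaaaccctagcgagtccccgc
Cpt1a: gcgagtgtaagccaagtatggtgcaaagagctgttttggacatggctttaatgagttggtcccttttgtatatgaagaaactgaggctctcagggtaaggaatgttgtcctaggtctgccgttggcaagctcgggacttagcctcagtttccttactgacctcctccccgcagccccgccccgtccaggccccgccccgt

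The sterol element, searched on both strands, was in the windows of 0.958% of 27025 genes. It was in 1 of the 19 sterol list members with a window in the table, Hmgcs1. Of the 16 leading genes 14 had a window. Hmgcs1 alone held the sterol element and Klf11 alone held the E-box CACGTG (4.98% of all genes). In none of the 14 were the ISRE (2.82% of all genes), the heat shock element (0.377%), the D-box TTATGTAA (0.784%), the cAMP element TGACGTCA (0.955%), AP-1 TGANTCA (6.51%) and the RORE (0.163%). A match describes letters in a window, not a bound site, and a missing match says nothing of the factor.

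Cytosolic ribosomal protein genes held a smaller share of counts with HFD. Their summed share was 2.43, 2.53 and 3.01% in the HFD week 8 libraries and 2.22, 2.71 and 2.91% in the HFD week 16 libraries. With NCD it was 3.55, 3.14 and 3.34% at week 8 and 3.03, 3.12 and 3.29% at week 16. Every HFD library lay below every NCD library, the closest pair being 3.01% and 3.03%. The mean difference of the shares was -0.61 percentage points, with p = 0.005 in an exact two-sided permutation test of diet labels within week (n = 6 each), the smallest value that its 400 arrangements allow, and 0.02 after adjustment over 4 library measures. Leaving out single libraries moved it between -0.70 and -0.51. The set of 87 symbols was chosen after the data were seen. The first set tried, 50 tested large subunit genes, had diets that met at the edge, with 1.26 to 1.74% under HFD and 1.73 to 1.98% under NCD (difference -0.32 points, exact permutation p = 0.005, n = 6 each). Sets of 60, 86 and 411 symbols gave the same p without overlap. The genes have many near-identical copies in the genome and the way multi-mapping reads were counted is not stated, so single members are uncertain.

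Of 87 ribosomal protein genes 80 were tested, 78 had a negative log2 fold change and the median was -0.31. At unadjusted p under 0.05, 67 were lower and 0 higher, against 3.54% and 4.76% of all genes tested. In edgeR 0 passed after adjustment, in DESeq2 8. In 5 members (Rpl13, Rpl28, Rpl37a, Rpl5, Rps15) of the 80 all HFD libraries lay below all NCD libraries. Over all genes tested this held for 0.199%. Rpl13 was at 379 to 527 CPM (median 450) with HFD and 550 to 634 CPM (median 586) with NCD. Its log2 fold change was -0.37 ± 0.08 (SE), with an adjusted p of 0.169 in edgeR. The members with positive values were Rpl24, at 3.73 to 8.79 CPM with HFD and 5.10 to 8.34 CPM with NCD, and Rpl7l1 (0.07). The median was -0.30 and 49 members were lower at unadjusted p under 0.05 without the 3 HFD libraries with Jchain. Eef1b2, a translation elongation factor, lay with these genes at 898 to 1225 CPM with HFD and 1122 to 1350 CPM with NCD (log2 fold change -0.28, adjusted p = 0.255, edgeR). In the Myc and ribosome biogenesis list 19 of 25 tested genes had negative values, 5 of them at unadjusted p under 0.05 (2 without the libraries with Jchain, without both extreme libraries or without HFD week 16 replicate 3, 3 without NCD week 8 replicate 3 and 8 without HFD week 8 replicate 3), among them Npm1 (-0.25) and Gnl3 (-0.36), both nucleolar proteins.

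In spleen libraries of other weeks the share was 3.53 to 3.61% at week 0. At week 2 it was 2.91 to 3.02% with HFD and 3.38 to 3.64% with NCD, without overlap. At week 4 it was 2.64 to 3.47% with HFD and 3.38 to 3.46% with NCD, with overlap. VAT Tregs held 1.81 to 2.21% with HFD and 1.58 to 1.88% with NCD at week 8, and 1.93 to 2.73% and 1.86 to 1.94% at week 16, with overlap in both weeks.

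**Figure D3:**
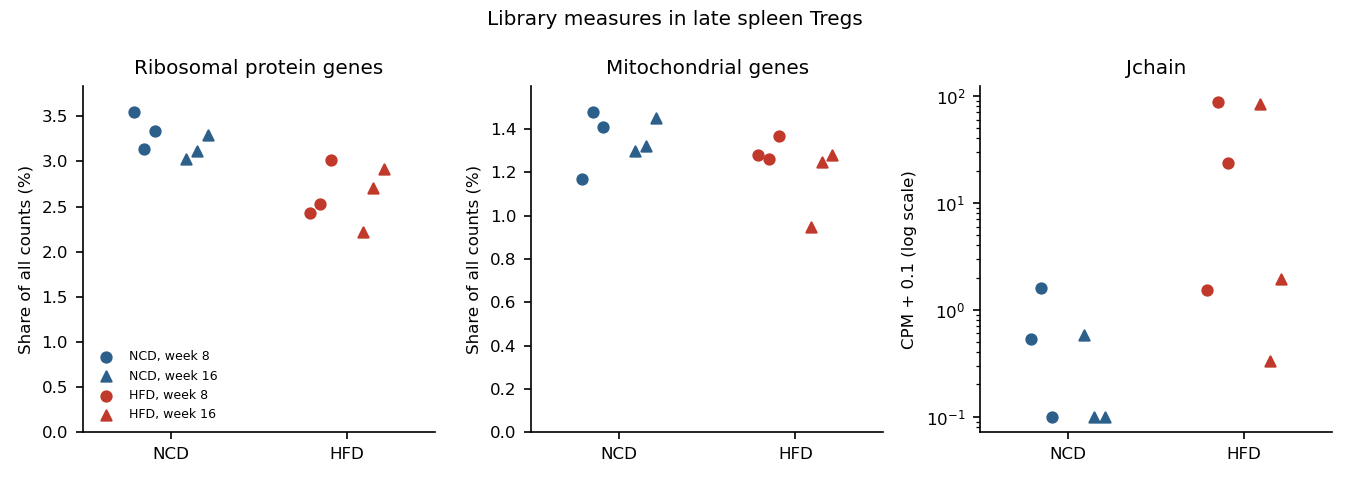
Share of all counts in ribosomal protein genes and in mitochondrial genes (%, axes from 0) and Jchain (CPM + 0.1, log scale) in the 12 libraries by diet, circles for week 8 and triangles for week 16. The ribosomal shares of the diets do not overlap. In 3 HFD libraries the points lie above 20 CPM of Jchain.

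Genes of the mitochondrial genome took 0.950 to 1.37% of counts with HFD and 1.17 to 1.48% with NCD, a difference of -0.124 percentage points that did not pass (p = 0.13, adjusted 0.26, exact permutation test, n = 6 each). All 8 mitochondrial respiratory chain genes that were tested had negative log2 fold changes, with a median of -0.21, and 4 had an unadjusted p under 0.05. Over all genes tested 3.54% were lower at that p. Of 35 nuclear genes of oxidative phosphorylation 25 were negative, with a median of -0.10 and 1 lower at unadjusted p under 0.05 (0 to 5 without single or several libraries, the highest without both extreme libraries). Total counts (p = 0.435) and genes detected (p = 0.52) did not pass the same exact permutation test.

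**Figure D4:**
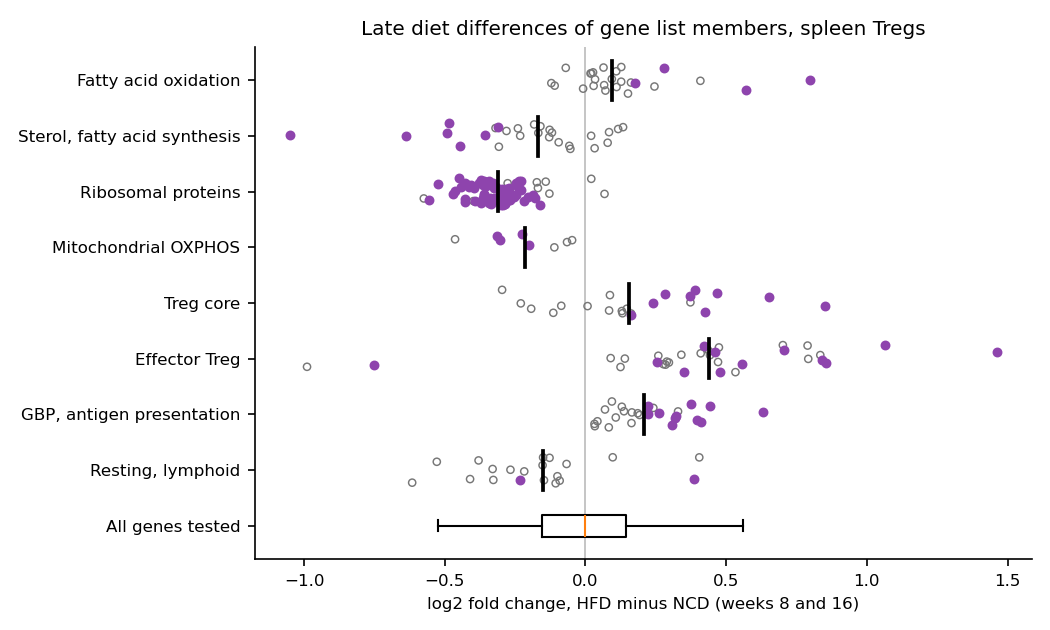
Log2 fold change, HFD minus NCD (horizontal axis), of each tested member of 8 gene lists, filled where the unadjusted p was under 0.05, with black bars at list medians. The box for all genes tested shows the quartiles, with whiskers at the 5th and 95th percentiles and the median near 0. Ribosomal protein genes lie left of 0 with a median of -0.31 and effector Treg genes right of 0 with a median of 0.44.

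Effector Treg genes lay higher with HFD in most members, though none passed in edgeR and 3 did in DESeq2. Of 33 tested genes 31 had positive values, with a median of 0.44, and 11 were higher and 1 lower at unadjusted p under 0.05. Over all genes tested 4.76% were higher and 3.54% lower at that p. Batf, a transcription factor of effector Tregs, was at 157 to 299 CPM (median 220) with HFD and 124 to 171 CPM (median 155) with NCD. The ranges overlapped, and the log2 fold change was 0.56 ± 0.11 (SE, adjusted p = 0.166, edgeR). Lgals3, galectin-3, was at 25.6 to 74.5 CPM with HFD and 15.5 to 34.7 CPM with NCD (1.07). Ccr8, a chemokine receptor of tissue Tregs, was at 54.6 to 140 CPM with HFD and 30.5 to 63.4 CPM with NCD (0.86), and Il1rl1, the IL-33 receptor ST2, at 35.8 to 72.8 and 13.95 to 49.0 CPM (0.84). The 1 lower member was Ly6c1 (-0.75). Klrg1 spanned 144 to 432 CPM with HFD and 90.1 to 454 CPM with NCD, with wide overlap. In bulk samples more cells of a state and more RNA per cell cannot be told apart. Without the 2 extreme week 16 libraries the list's median was 0.28 with 7 higher members, and without the 3 HFD libraries with Jchain it was 0.30 with 8. Single libraries moved the count of higher members to 6 (without HFD week 16 replicate 1, median 0.31), to 7 (without HFD week 8 replicate 1 or NCD week 8 replicate 1) and to 19 (without NCD week 16 replicate 1, median 0.58).

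Treg core genes had 17 of 22 positive values and a median of 0.15, with 9 higher and 0 lower at unadjusted p under 0.05. The shares over all genes tested were 4.76% higher and 3.54% lower. Icos, a costimulatory receptor, was at 393 to 563 CPM with HFD and 266 to 398 CPM with NCD, meeting at the edge (log2 fold change 0.42 ± 0.10 SE, adjusted p = 0.206, edgeR). Itgae, the integrin chain CD103, was at 338 to 628 and 162 to 406 CPM. Foxp3 was at 778 to 917 CPM (median 865) with HFD and 701 to 843 CPM (median 746) with NCD (0.16). Il2ra (-0.23) and Ctla4 (0.13) overlapped widely. Resting and lymphoid genes had 17 of 20 negative values and a median of -0.15, but 1 higher and 1 lower member at unadjusted p under 0.05. The lower one was Lef1 (-0.23) and the higher one Il7r (0.39). Without the 2 extreme week 16 libraries the resting list's median was -0.03.

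Guanylate-binding and antigen presentation genes were positive in 26 of 26 tested members, with a median of 0.21, and 11 were higher at unadjusted p under 0.05, none after adjustment. Over all genes tested 4.76% were higher at unadjusted p under 0.05. Irgm1, an interferon-induced GTPase, was at 303 to 456 CPM with HFD and 231 to 341 CPM with NCD (log2 fold change 0.37), and Tapbp, which loads MHC class I, at 733 to 1018 and 647 to 763 CPM (0.22). These values moved with the 3 HFD libraries with Jchain, without which fewer of all genes tested had an unadjusted p under 0.05 as well. Over all genes 412 of 14603 were then higher, against 621 of 13034 in the main fit. Without those 3, 18 of 26 were positive, the median was 0.04 and 0 had an unadjusted p under 0.05. The count of higher members was 5 without HFD week 8 replicate 2, and 6 without HFD week 16 replicate 1, without NCD week 16 replicate 3 or without both extreme week 16 libraries. Type I interferon genes had 38 of 49 positive values, a median of 0.11 and 9 higher members at unadjusted p under 0.05. Those 9 became 3 without the libraries with Jchain, 5 without both extreme week 16 libraries, 4 without HFD week 16 replicate 1, 5 without HFD week 8 replicate 2 and 14 without NCD week 16 replicate 1. Isg15 (0.06) and Ifit3 (0.07) were near 0 over both weeks, with Ifit3 at 10.1 to 32.5 CPM with HFD and 6.59 to 43.9 CPM with NCD. By week Ifit3 went in opposite directions, with -0.81 at week 8 and 1.02 at week 16. That difference between the weeks did not pass (adjusted p = 0.999, edgeR). Cell cycle genes had 31 of 37 positive values and a median of 0.33, with 4 higher at unadjusted p under 0.05. The median was 0.02 without the 3 libraries with Jchain, 0.10 without HFD week 16 replicate 1 and 0.65 without NCD week 8 replicate 3, with 1, 1 and 11 higher members. Without HFD week 8 replicate 2 or NCD week 8 replicate 2 there were 2.

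The counts in this paragraph stand beside 4.76% higher and 3.54% lower over all genes tested at unadjusted p under 0.05. NF-kB genes had 8 members higher and 1 lower at unadjusted p under 0.05 among 21 tested (5 higher without both extreme libraries). They included Nfkbia, the inhibitor induced by the pathway (0.28), and Icam1, an adhesion molecule (0.63), which was at 184 to 296 CPM with HFD and 117 to 216 CPM with NCD. Chemokine receptors and integrins had 9 higher and 1 lower of 26, among them Cxcr4 (0.95) and Ccr6 (0.64). Endoplasmic reticulum stress genes had 7 higher and 1 lower of 20, with Calr, a chaperone, at 0.30. Without the 3 HFD libraries with Jchain, where counts over all genes were lower too, this count was 1 higher, with 11 of 20 positive. It was 3 without HFD week 8 replicate 2 or HFD week 16 replicate 1, and 4 without NCD week 8 replicate 1, NCD week 16 replicate 3 or both extreme libraries. Glycolysis and hypoxia genes had 24 of 27 positive values and a median of 0.15, which was 0.07 without the libraries with Jchain, with Tpi1 at 0.55. Its 4 higher members at unadjusted p under 0.05 were 2 without HFD week 16 replicate 2. Helper T cell genes had 2 higher of 11 tested. One was Il23r, a subunit of the IL-23 receptor, which was at 0.746 to 4.53 CPM with HFD and at 0 to 0.498 CPM with NCD. The NCD values lie under what 3 counts are worth, so no fold is given. Heat shock, p53, glucocorticoid, T cell receptor, circadian, immediate early, IL-2 and BCL2 lists had medians from 0.03 to 0.14, with at most 3 members higher at unadjusted p under 0.05 each. Their shares of higher members ran from 4.0% (T cell receptor) to 15.4% (BCL2). The 3 higher circadian members became 1 without both extreme libraries. The same held without HFD week 8 replicate 1, HFD week 16 replicate 1 or 2, or NCD week 16 replicate 2. The immediate early median of 0.12 was 0.05 without the libraries with Jchain and 0.001 without both extreme libraries. Insulin and adipokine receptor genes had a median of -0.10, with Adipor1 (-0.33) and Foxo3 (-0.34) lower at unadjusted p under 0.05, against 0 members without the libraries with Jchain and 1 without any of 4 single libraries (HFD week 8 replicate 3, HFD week 16 replicate 2, NCD week 8 replicate 1, NCD week 16 replicate 1). Y-linked genes were present in all 12 libraries.

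Among the remaining leading genes, Jak3, the kinase of the common gamma chain cytokine receptors (chr8:71676296-71690575, plus strand), was the nearest to the threshold. It stood at 457 to 518 CPM (median 468) with HFD and 316 to 390 CPM (median 367) with NCD, without overlap. Its log2 fold change was 0.42 ± 0.07 (SE), with an adjusted p of 0.0574 in edgeR and 7.58e-05 in DESeq2. The log2 fold change of Jak3 was -0.02 at week 2 and -0.14 at week 4, and neither passed. Fam129a, also called Niban, was at 222 to 371 CPM (median 278) with HFD and 150 to 198 CPM (median 188) with NCD, without overlap (0.63 ± 0.11 SE, adjusted p = 0.0865, edgeR). Klf11, a zinc finger transcription factor, was at 15.9 to 22.9 and 5.79 to 12.4 CPM, again without overlap (1.09, adjusted p = 0.166). Ncmap did not overlap (0.57), and Twsg1, an extracellular modulator of BMP signals, did (0.68). On the lower side were Tsc1, a brake on mTORC1, at 30.1 to 40.5 CPM with HFD and 46.2 to 69.6 CPM with NCD (-0.53, adjusted p = 0.255), and Tnfsf8, the CD30 ligand, at 63.6 to 103 and 115 to 133 CPM (-0.42, adjusted p = 0.271). Both were without overlap. Igsf23 (-0.67) and Asb13 (-0.55) overlapped.

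The weeks gave no calls on their own. At week 8 edgeR called 0 of 13034 genes (0.0%), with 667 at unadjusted p under 0.05, and DESeq2 called 7. At week 16 edgeR called 0 (0.0%), with 878 at unadjusted p under 0.05, and DESeq2 called 14. For the difference of the diet effect between the weeks edgeR called 0 (0.0%), with 503 at unadjusted p under 0.05, and DESeq2 0. The sterol list's median was -0.17 at week 8 and -0.12 at week 16, that of ribosomal protein genes -0.41 and -0.24, and that of effector Treg genes 0.31 and 0.50. Other lists lay nearer 0 at week 8. Cell cycle genes had medians of 0.11 and 0.59, type I interferon genes 0.07 and 0.21. The Myc and ribosome biogenesis list had -0.0 and -0.295. Differences of list medians between the weeks were not tested. No gene was shown to differ between the weeks.

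The late diet effect was then compared with that in VAT Tregs of the same diets and weeks, in 11 libraries, of which NCD week 16 had 2. It differed between the tissues in 806 of 14651 genes (5.50%) in edgeR, 387 with the spleen value above the VAT value and 419 below. Cpt1a was among them: in VAT its log2 fold change was -0.07 ± 0.14 (SE) from group means of 196 to 258 CPM, all above the spleen means, and the difference of 0.88 ± 0.19 (SE) had an adjusted p of 0.00655. Cpt1a had been picked by its values in the same spleen libraries, which this difference uses again. The sterol list had a median of -0.68 in VAT and -0.16 in spleen. The difference between tissues passed for 7 of 27 members, all with the spleen value above, among them Srebf2 (VAT -0.87) and Sqle (VAT -1.81). Effector Treg genes had a median of -0.37 in VAT, and the difference passed for 12 of 33 members, all with the spleen value above. Lgals3 had a log2 fold change of -1.85 in VAT. Resting and lymphoid genes had a median of 0.97 in VAT, and the difference passed for 11 of 20, all with the spleen value below, among them Tcf7 and Ccr7. Guanylate-binding and antigen presentation genes had a median of 0.73 in VAT, with 8 of 26 passing, all with the spleen value below. For ribosomal protein genes the VAT median was 0.12, and 8 of 81 passed with the spleen value below.

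**Figure D5:**
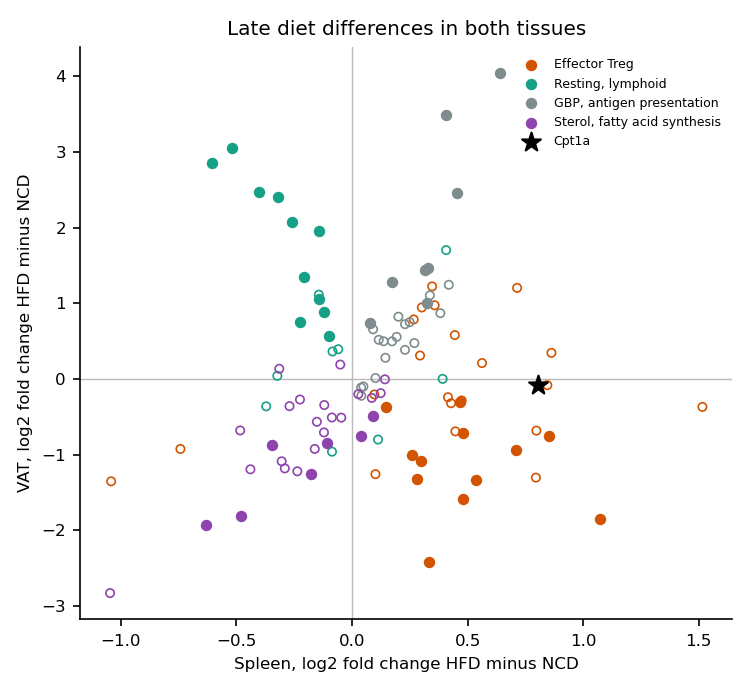
Late log2 fold change, HFD minus NCD, in spleen (horizontal axis) and VAT (vertical axis) for members of 4 gene lists and Cpt1a, filled where the difference between tissues passed an adjusted p of 0.05. Passing effector Treg genes lie right of 0 and below 0, passing resting genes left of 0 and above 0. Cpt1a lies at 0.81 in spleen and -0.07 in VAT.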

How the data were processed

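The authors deposited unnormalized read counts for each gene symbol, made with STAR 2.7.3a and featureCounts on mm10, per the submitters' processing notes. No label or note used here gives the strand setting, the annotation release or the counting of multi-mapping reads. Of 55011 symbols, 52936 (96.2%) matched GENCODE M21, which gave positions.

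Counts of the 12 libraries were fitted in R 4.3.3 with edgeR 4.0.16 (TMM, filterByExpr by group, robust quasi-likelihood, week and diet as terms). A gene was called where its Benjamini-Hochberg adjusted p was under 0.05. The weeks came from a fit of 4 group means, the tissues from a joint fit of the spleen and VAT libraries. CPM were computed from these counts with TMM scaling, so values in all 26 spleen libraries differ slightly from those in the 12. The SE is the log2 fold change divided by the square root of F. Library shares were tested by exact permutation. DESeq2 1.42.0 and limma 3.58.1 served as alternatives, beside RLE, no filter, all spleen libraries, replicate blocks and leaving out each library. Added after seeing the data were fits without libraries that stood apart, TMM without ribosomal protein genes, and other ribosomal protein sets. The set used, its 87 symbols included, was also settled after seeing the data.

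Since fewer than 5 genes were called, the 8 genes with the smallest p in each direction and a mean log2 CPM of at least 3 were named, leaving out predicted, pseudogene, ribosomal protein and receptor segment genes. Added were each list's 3 members of smallest p, a fixed set of Treg, interferon, lipid and clock genes, and Cpt1a as the gene called both in the spleen and between the tissues. Some items are not reported here. Other members named here were chosen after their values were seen. The libraries compared and the gene lists were chosen with earlier results of these data known. The scripts were tested on simulated counts.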

Additional observations from a re-analysis of the deposited data

Results flagged for a closer look

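In 220 groups of 6 libraries, 21 held 1 library far from the others by Dixon's test on log2(CPM + 1) or library shares, where chance flags about 1 in 20. HFD week 16 replicate 1 stood apart in 5 of them: Lef1 at 167.7 and Hk1 at 98.77 CPM were low, Dusp1 at 190.6 and Ikzf2 at 1983 CPM were high, and its mitochondrial share was low at 0.9503%. Other HFD values were Tsc1 at 30.11 CPM in week 8 replicate 3, Asb13 at 44.81 CPM in week 16 replicate 3 and Fos at 1.387 CPM in week 16 replicate 2. In NCD week 8 replicate 1, Tnfsf8 was at 133 and Foxo3 at 72.73 CPM, above the others, and Gadd45b at 36.04 and Uty at 53.64 CPM, below. In NCD week 16 replicate 1, Irf1 was at 607.6 and Cish at 331.1 CPM, above, and mt-Nd5 at 1044 and Tcf7 at 153.2 CPM, below. In NCD week 16 replicate 2, Dnajc3 was at 308.8 and Adipor2 at 80.25 CPM, above, and Fos at 0 CPM, below. In NCD week 16 replicate 3, Calr was at 179.5 and Cenpe at 0.4845 CPM, both below.

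For 33 named genes the late diet effect differed between spleen and VAT (adjusted p under 0.05, edgeR), given here as the log2 fold change in spleen minus that in VAT. Over all genes tested it differed in 806 of 14651 (5.50%). Many named genes were picked for a small p in these same spleen libraries, which favours a difference. The count of 33 is therefore no test of the named genes as a set. Metabolic genes with a higher spleen value were Cpt1a (0.88), Acot7 (1.118), Srebf2 (0.523), Sqle (1.328), Plin2 (2.133) and Slc2a3 (0.437). Of these, Srebf2 (spleen -0.35, VAT -0.87) and Sqle (spleen -0.48, VAT -1.81) were lower with HFD in both tissues, less so in spleen. Treg and signalling genes with a higher spleen value were Fam129a (0.759), Capg (0.79), Lgals3 (2.929), Il1rl1 (1.606), Irf4 (1.383), Rora (1.197), Nfkbia (0.542), Cish (0.649), Gadd45b (1.057) and Il23r (4.887, a fitted value from libraries near 0). Stress, clock and glucocorticoid genes with a higher spleen value were Hspa4l (1.095), Dnajb1 (0.739), Nr1d1 (1.52) and Fkbp5 (0.801). Lower in spleen than in VAT were the effects on the lymphoid genes Lef1 (-0.983), Tcf7 (-2.102), Ccr7 (-2.732) and Ltb (-1.206), and on the interferon and antigen presentation genes Tgtp2 (-2.011) and Ctss (-2.414). The other lower effects were Eef1b2 (-0.437), Npm1 (-0.491), Dnajc3 (-0.436), Bcl2l11 (-1.189), Tnfsf8 (-1.479), Igsf23 (-2.14) and Asb13 (-0.909).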

How the results depend on the processing

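The late comparison called 1 gene. It called 161 without the low-count filter (107 higher, 54 lower), 41 with DESeq2, 0 with all 26 spleen libraries, 2 with 4 group means (Cpt1a and Jak3), and 0 without the 3 libraries with Jchain. Leaving out single libraries gave 0 to 6. RLE, voom with quality weights, TMM without ribosomal protein genes and the fit without the 2 extreme week 16 libraries each gave 1. With a replicate block the late comparison called 30 genes (numbers within week) or 2 (numbers over both weeks), week 8 called 1 and week 16 called 2. Correlations of same-numbered libraries were -0.054 to 0.184 between diets and -0.070 to 0.206 between tissues. Taken around means of at most 3 libraries, they cannot decide whether the numbers pair the samples, which is not stated. The main fits used no block. Week 8 called 41 without the filter, 7 with DESeq2 and 0 to 1 leaving out single libraries. Week 16 called 49 without the filter and 14 with DESeq2, and the difference between weeks 2 without the filter. The tissue difference ran from 636 to 1075 genes over 16 alternatives. Of 109 named genes, 36 passed the threshold under some alternative only, Cpt1a lost its call in 6, and 7 changed sign, none of them past the threshold. The changes of sign without the 2 extreme libraries were Dusp1 -0.014, Isg15 -0.045, Ifit3 -0.273 and Fos -0.250. Without the libraries with Jchain they were Isg15 -0.378, Nr1d1 -0.015 and Fkbp5 -0.013, and with voom Ifit3 -0.240 and Nr1d1 -0.047. Leaving out single libraries, Isg15 ran from -0.063 to 0.305, Ifit3 from -0.165 to 0.328, Fos from -0.163 to 0.310, Ltb from -0.046 to 0.021, Nr1d1 from -0.176 to 0.297 and Fkbp5 from -0.015 to 0.222. The cause of these changes was not tested. List medians moved with the libraries left out, as given with each list above. The ribosomal protein share differed by -0.498 points with symbols of digits alone and by -0.321 points with tested large subunit genes alone, a smaller set of genes. The 3 libraries in each group and the totals of 3248686 to 5156451 counts limit what can be detected, most of all within single weeks.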
